A study of Mus musculus with 38 samples.

Results

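Mouse CD4 T cells in which a transgene supplies the miR-17~92 microRNA cluster on a CD28-/- background (rescue cells) were set against wild-type cells, both after 24 h of stimulation in culture. The libraries were chosen by their labels alone, which gave 3 rescue and 4 wild-type libraries of the 38 in the series. The comparison asks which genes the transgene leaves away from the wild-type level and which it carries past it.

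Rescue mice carry the CD28-/- alleles, a CD4cre transgene and a miR-17~92 transgene placed in the Rosa26 locus, where the CAG promoter drives it once Cre has removed a floxed stop (B6.CD28-/-.CD4cre.Rosa26loxSTOPloxCAG-miR-17~92Tg). The wild-type mice carry none of these alleles per the labels. A further group, mice labelled CD28-/- without Cre or transgene (CD28ko-labelled, 4 libraries), gives the starting point of the rescue. Cd4-driven Cre acts in developing T cells, and no group was labelled as carrying Cre alone. What Cre or the strain may add and what the cluster adds cannot be told apart. All 3 groups had the same culture, in which naive CD4 T cells, prepared from the lymph nodes and spleen of 1 mouse per library, spent 24 h on plates that had been coated with antibodies to CD3 (0.5 µg/ml) and to CD28 (0.2 µg/ml), in medium with 50 U/ml of interleukin-2 (IL-2). Naive libraries of the same genotypes (3 rescue, 4 wild-type) were read directly after isolation. The labels state no ages, and mice of both sexes were used.

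Naive T cells depend on CD28 as their principal costimulatory receptor. Together with the T cell receptor it raises production of IL-2, uptake of glucose and amino acids, and entry into the cell cycle. miR-17~92 is 1 primary transcript cut into several microRNAs, which lower the stability and translation of messenger RNAs that pair with their seed, and it is known to promote lymphocyte growth and survival. Its known targets include brakes on PI3K signalling, on calcineurin and on the intrinsic death pathway.

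The mature microRNAs of the cluster are shown first because the transgene differs from wild-type by their supply. They lie on chromosome 14, plus strand, and are given 5′ to 3′ from RefSeq (GRCm38.p6), with the seed, bases 2 to 8, in capitals.
mmu-miR-17-5p: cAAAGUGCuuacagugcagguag
mmu-miR-20a-5p: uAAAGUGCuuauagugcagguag
mmu-miR-18a-5p: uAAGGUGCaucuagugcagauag
mmu-miR-19a-3p: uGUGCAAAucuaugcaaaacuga
mmu-miR-19b-3p: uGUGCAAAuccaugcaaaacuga
mmu-miR-92a-3p: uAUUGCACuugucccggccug
miR-17-5p and miR-20a-5p share a seed, as do miR-19a-3p and miR-19b-3p, so that the 6 microRNAs make 4 seed families. The libraries held polyA RNA, so mature microRNAs were not measured.

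Library totals were 25369804 to 28020721 counts for rescue, 22267060 to 25677763 for CD28ko-labelled and 22605246 to 26471088 for wild-type cells at 24 h. On the first principal component of the 7 libraries, which held 74.3% of the variance, rescue libraries lay between 17.7 and 25.5 and wild-type libraries between -17.6 and -14.2, with rescue replicate 1 the farthest from wild-type. All 3 rescue and all 4 CD28ko-labelled libraries were female by Xist and Y-linked counts, while wild-type replicate 4 was male and the other 3 wild-type libraries female. Of 12 genes of CD4 T cell identity, 5 rose and 2 fell in rescue against wild-type cells, where 35.1% of all tested genes were called, and their summed level was 5427 to 6000.5 CPM (the count over the scaled library size, as edgeR computes it) in rescue, 5765 to 6637 CPM in CD28ko-labelled and 4782 to 5558 CPM in wild-type libraries. In such bulk libraries, more cells of a type and more RNA per cell cannot be told apart, here and for every level that follows. Cd4 itself had 445 ± 57.1 CPM in rescue and 505 ± 79.8 CPM in wild-type cells (SD, n = 3 and 4), a log2 fold change of -0.18 ± 0.10 (SE) with adjusted p = 0.17. Here and below, log2 fold changes are rescue over wild-type from edgeR's quasi-likelihood test, with Benjamini-Hochberg adjustment over 13650 genes, and a gene rose or fell where the adjusted p was below 0.05.

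The engineered loci were examined first. The count of Mir17hg, the host transcript of the cluster (Entrez gene 75957, chromosome 14:115044390-115046728, GRCm38.p6), was 34.9, 29.2 and 26.6 CPM in rescue, 32.8, 29.4, 26.1 and 25.9 CPM in CD28ko-labelled and 23, 17.4, 20.5 and 21.9 CPM in wild-type libraries. The annotated interval holds miR-92a-3p alone of the 6 mature microRNAs above and starts after the other 5, so its count is of the part of the transcript at and beyond the end of the cluster, if reads were counted on this interval. Rescue cells stood above wild-type (log2 fold change 0.55 ± 0.14, adjusted p = 0.0026), whereas their difference from CD28ko-labelled cells was 0.08 ± 0.14 (adjusted p = 0.75). The annotated precursor Mir17 separated the genotypes more widely, with 0.542, 0.617 and 0.555 CPM in rescue, 0.167, 0.216, 0.121 and 0.151 CPM in CD28ko-labelled and 0.134, 0.113, 0.156 and 0.120 CPM in wild-type libraries. Every rescue library lay above every other one. Its log2 fold change was 2.08 ± 0.47 over wild-type (adjusted p = 0.00079) and 1.78 over CD28ko-labelled cells (adjusted p = 0.0051).

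Mir18 rose as well, with 0.759, 0.771 and 0.763 CPM in rescue against 0.223, 0, 0.0390 and 0.0401 CPM in wild-type libraries, and Mir20a rose to 0.332 ± 0.127 CPM in rescue against 0.0932 ± 0.0675 CPM in wild-type cells (adjusted p = 0.026; the call was lost without rescue replicate 1 or 2 or wild-type replicate 2 or 4). All precursor levels were below 1 CPM at 24 h. In naive cells Mir17 averaged 6.88 ± 1.84 CPM in rescue against 0.334 ± 0.0969 CPM in wild-type cells, so the excess was larger before stimulation and the difference narrowed by 24 h (interaction -2.27 ± 0.66 on the log2 scale, adjusted p = 0.0087).

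Cd28 (chromosome 1:60746388-60773359) did not check the knockout. Its count was 481, 404 and 435 CPM in rescue, 527, 523, 598 and 506 CPM in CD28ko-labelled and 353, 292, 345 and 377 CPM in wild-type libraries. The rescue libraries all lay above the wild-type ones (log2 fold change 0.37 ± 0.15, adjusted p = 0.059), and 4 of the alternatives, DESeq2 among them, called it at adjusted p of 0.0029 to 0.039. The counts are per gene, and the part of it that the knockout removes is not given in the sources used here. Within 10 Mb of Cd28, 95 genes were tested and 10 rose and 28 fell, or 40.0% called. Of all tested genes 17.4% were higher, 17.7% lower and 35.1% called. Around Gt(ROSA)26Sor, the noncoding gene that names the Rosa26 locus, 18 of 102 genes rose and 13 fell (30.4% called). Gt(ROSA)26Sor itself was listed at 0 to 0.347 CPM in rescue and 0 to 0.120 CPM in wild-type libraries.

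At 24 h, 4794 of 13650 genes differed between rescue and wild-type cells, or 35.1%, with 2372 higher (17.4%) and 2422 lower (17.7%). The counts were balanced, but large changes leaned upward: 544 of the called genes were at least 2-fold higher and 207 at least 2-fold lower. The median over all tested genes was -0.02 on the log2 scale. Rescue and wild-type libraries did not overlap for 6643 genes (48.7%), with rescue above for 3003 (22.0%) and below for 3640 (26.7%). For scale, 51.5% of the same genes differed between CD28ko-labelled and wild-type cells (3236 higher, 3793 lower) and 18.4% between rescue and CD28ko-labelled cells (1300 higher, 9.52%, and 1210 lower, 8.86%). These comparisons share libraries, and the count for rescue against CD28ko-labelled cells rested on few libraries (1300 without rescue replicate 2, 1595 without rescue replicate 3). List counts of rescue against wild-type cells at 24 h below are to be read beside 17.4% higher and 17.7% lower. Those of rescue against CD28ko-labelled cells stand beside 9.52% and 8.86%, and those of CD28ko-labelled against wild-type cells beside 23.7% and 27.8%.

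**Figure D1:**
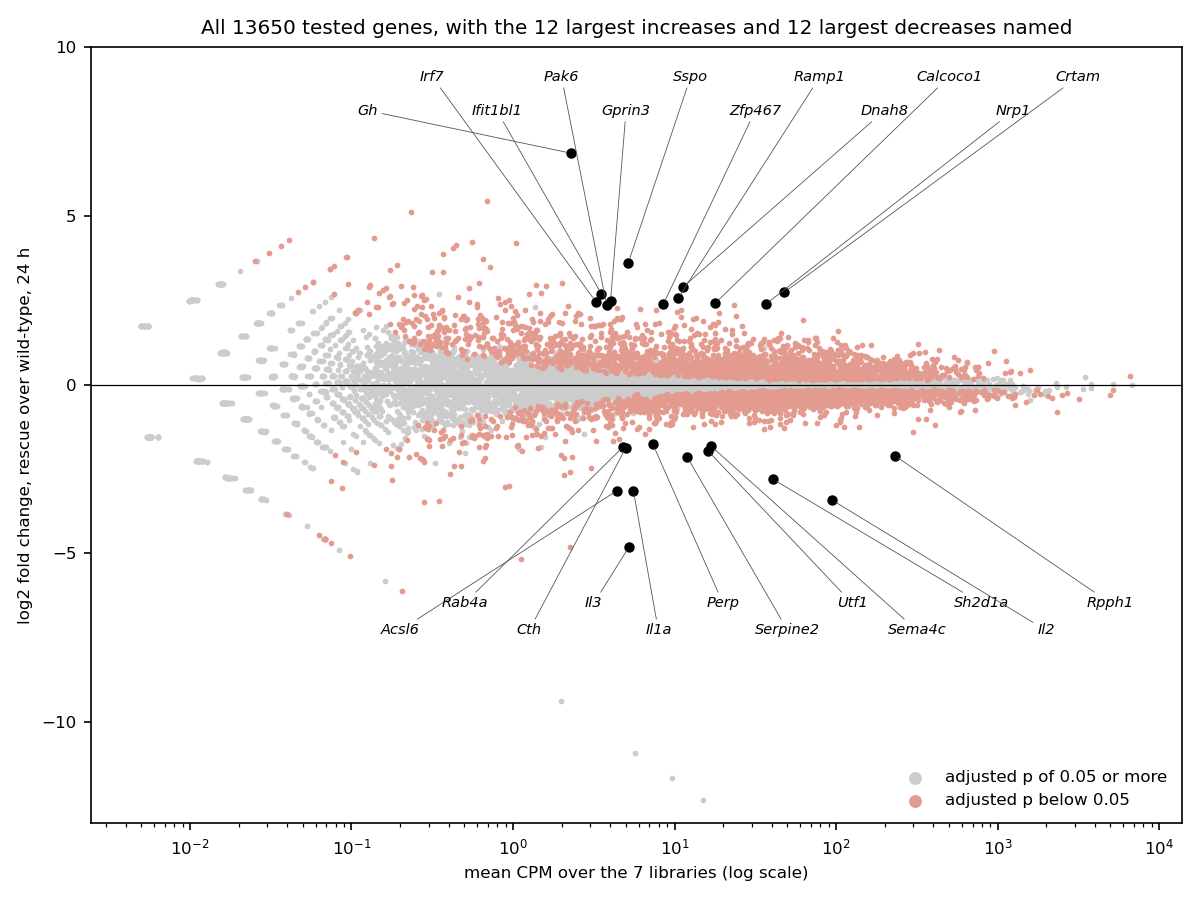
Log2 fold change of rescue over wild-type cells at 24 h against the mean level in CPM over the 7 libraries, for each tested gene. Red points passed an adjusted p of 0.05, and black points are the 12 largest increases, led by Gh, and the 12 largest decreases, led by Il3, among called, non-overlapping genes whose higher group averaged 5 CPM or more. The 4 grey points at the bottom are Y-linked genes counted in the male wild-type library.

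Among genes whose higher group averaged 5 CPM or more, Il3 and Sh2d1a were 2 of the 12 largest decreases. Il3, a growth factor for myeloid precursors, had 0.0723, 0.463 and 0.416 CPM in rescue, 0.293, 0.0431, 0.201 and 0 CPM in CD28ko-labelled and 5.87, 11.8, 9.59 and 8.50 CPM in wild-type libraries (-4.80 ± 0.46, adjusted p = 6.8e-08). Sh2d1a (chromosome X:42502565-42522097), which encodes the adaptor SAP of the SLAM receptors that T cells need to help B cells, had 9.83, 7.36 and 10.4 CPM in rescue, 7.36, 7.29, 6.19 and 7.36 CPM in CD28ko-labelled and 63.1, 68.8, 69.3 and 55.9 CPM in wild-type libraries (-2.80 ± 0.13, adjusted p = 1.6e-17). For both genes the rescue libraries lay far below wild-type and close to CD28ko-labelled cells. Rescue and CD28ko-labelled cells differed by 0.38 ± 0.13 for Sh2d1a (adjusted p = 0.04) and by 1.22 ± 0.73 for Il3 (adjusted p = 0.28).

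The other large decreases were of several kinds. Il1a, an inflammatory cytokine, fell by 3.16 and Acsl6, an acyl-CoA synthetase, fell by 3.14 on the log2 scale. Serpine2, a secreted protease inhibitor, Sema4c, a semaphorin, and Perp, a target of p53, fell to 4.04, 6.86 and 3.09 CPM in rescue cells, against 18, 24.4 and 10.6 CPM in wild-type cells. Cth, an enzyme of cysteine synthesis, fell by 1.87 and Utf1, a chromatin factor of embryonic stem cells, fell by 1.98. Rpph1, the RNA of ribonuclease P, is not polyadenylated as a mature RNA, and its level in polyA libraries was 66.4, 82.1 and 91.6 CPM in rescue, 121, 105, 109 and 121 CPM in CD28ko-labelled and 308, 323, 371 and 382 CPM in wild-type libraries. Rab4a, a GTPase of endosome recycling, had 1.93 ± 0.277 CPM in rescue, 4.21 ± 2.24 CPM in CD28ko-labelled and 6.95 ± 1.77 CPM in wild-type cells. It was the 1 gene among the 12 largest decreases that was also called lower in rescue than in CD28ko-labelled cells (-1.13 ± 0.37, adjusted p = 0.027).

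The largest increase at these levels was that of Gh. This gene of growth hormone, which is known from the pituitary, had 6.76, 3.55 and 5.45 CPM in rescue, 0.0418, 0.129, 0 and 0 CPM in CD28ko-labelled and 0.0890, 0, 0 and 0.0802 CPM in wild-type libraries (6.86 ± 0.55, adjusted p = 1.2e-11). It was also counted at 3.43 ± 0.694 CPM in stimulated T1792tg cells (n = 4), which carry CD4cre and the Rosa26 transgene without the CD28-/- alleles, and at 25.4 ± 4.32 CPM in naive rescue cells against 0.147 ± 0.151 CPM in naive wild-type cells. It was thus counted in both genotypes with the transgene, which also carry CD4cre. Its level was near 0 in CD28ko-labelled and wild-type cells, which carry neither. Transgene and Cre cannot be told apart in these groups, and the source of the reads was not tested.

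Crtam, an adhesion receptor of activated cytotoxic lymphocytes, had 85.1, 108 and 84.8 CPM in rescue, 84.1, 88.6, 80.1 and 82.1 CPM in CD28ko-labelled and 14.7, 13, 12.2 and 16.1 CPM in wild-type libraries (2.73 ± 0.12, adjusted p = 1.1e-17). The rescue libraries overlapped those of CD28ko-labelled cells and lay far above wild-type. Dnah8, a dynein heavy chain, Ramp1, a subunit of the receptor for calcitonin gene-related peptide, and Calcoco1, a transcriptional coactivator, also rose, with log2 fold changes of 2.89, 2.56 and 2.41. Sspo rose by 3.60, Zfp467 by 2.39 and Ifit1bl1, a relative of the interferon-induced Ifit genes, by 2.69.

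Besides Gh, 3 of the 12 largest increases were also called over CD28ko-labelled cells. Nrp1, a coreceptor for semaphorins and vascular endothelial growth factor (chromosome 8:128358591-128505476), had 60.5, 80.3 and 63.5 CPM in rescue, 33.5, 33.7, 29 and 31 CPM in CD28ko-labelled and 13.5, 12.4, 14.5 and 12 CPM in wild-type libraries. The log2 fold change was 2.38 ± 0.17 over wild-type (adjusted p = 7.3e-13) and 1.10 ± 0.16 over CD28ko-labelled cells (adjusted p = 6.5e-06). Gprin3 had 7.57 ± 2.63 CPM in rescue, 1.88 ± 0.587 CPM in CD28ko-labelled and 1.35 ± 0.365 CPM in wild-type cells, and Pak6, a p21-activated kinase, had 7.04 ± 1.25, 3.0 ± 0.304 and 1.36 ± 0.333 CPM in the same order of groups. Both were called against each of the other groups.

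**Figure D2:**
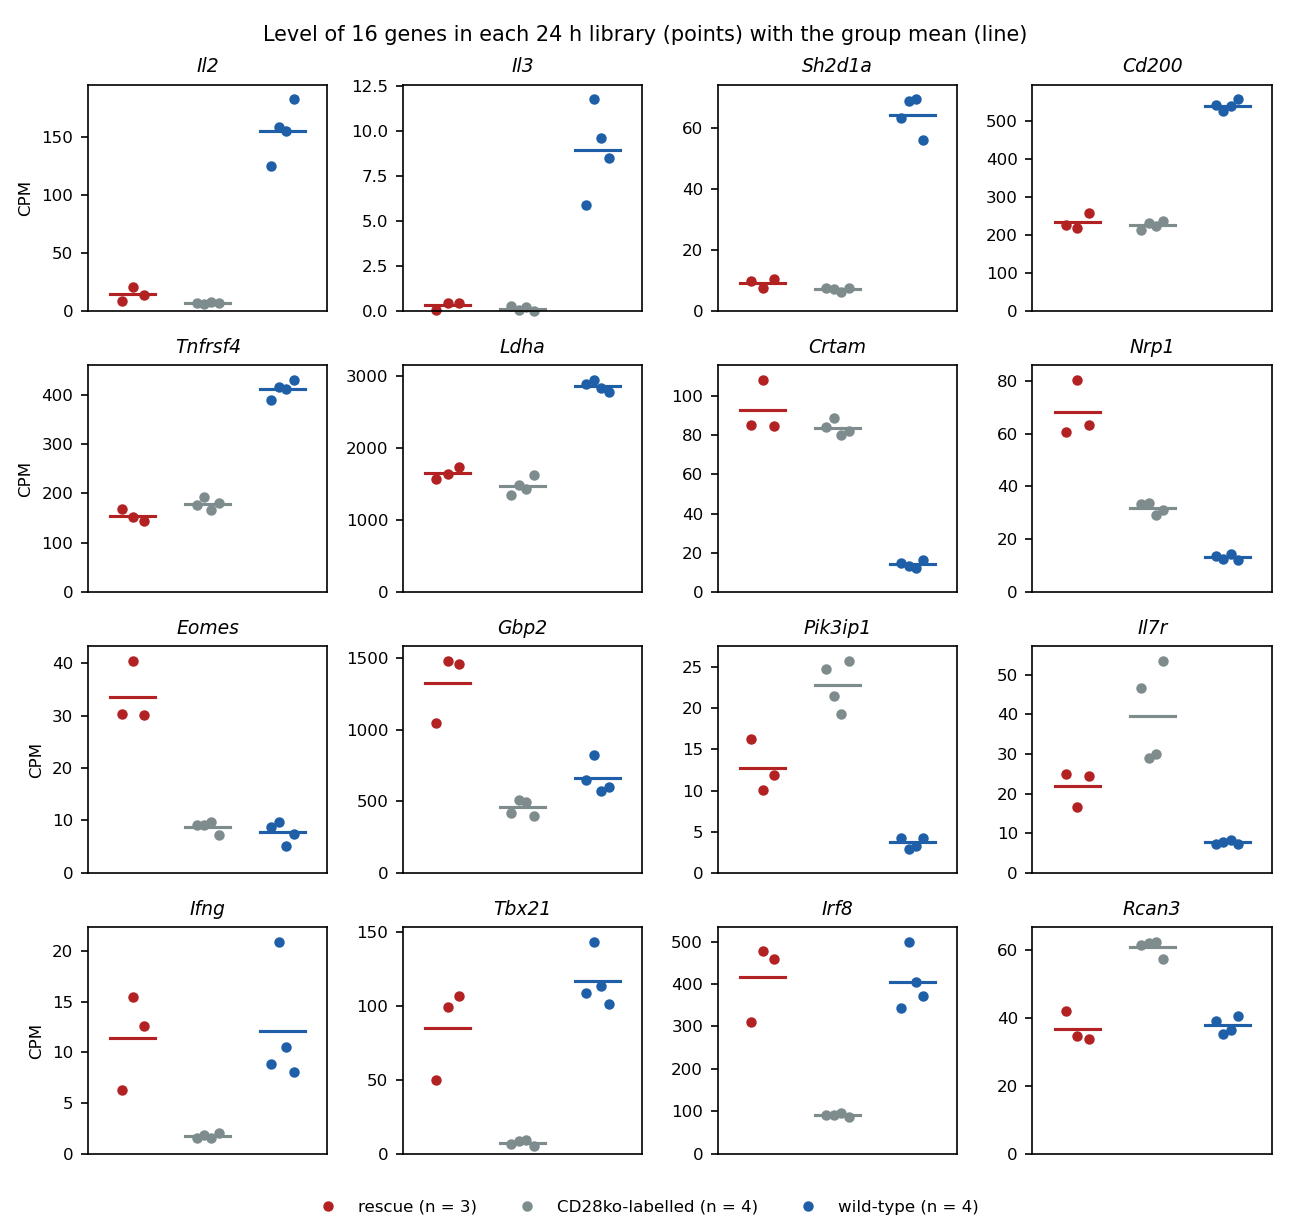
Level in CPM of 16 genes in each stimulated library, with rescue, CD28ko-labelled and wild-type libraries from left to right and the group mean as a line. In the first 7 panels rescue libraries sit apart from wild-type and near or within the CD28ko-labelled range. Nrp1, Eomes and Gbp2 were highest in rescue cells, Pik3ip1 and Il7r lay between the other groups, and for the last 4 genes rescue lay within or close to the wild-type range except for Tbx21 in replicate 1.

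IL-2 is the growth factor that costimulated T cells make for themselves. Il2 (chromosome 3:37120713-37125954) had 8.71, 20.5 and 14.2 CPM in rescue, 7.07, 6.43, 7.51 and 6.83 CPM in CD28ko-labelled and 125, 159, 155 and 183 CPM in wild-type libraries. Rescue cells held 9.28% of the wild-type mean (-3.43 ± 0.20, adjusted p = 7.5e-15). They were above CD28ko-labelled cells by 1.05 ± 0.20 (adjusted p = 0.00027), so the level lay between the other groups and much closer to CD28ko-labelled cells. The Il2 promoter holds the CD28 response element, the composite site through which CD28 signals are known to act on this gene. The window from 250 bases before to 50 after the start (chr3:37125905-37126204, minus strand, RefSeq GRCm38.p6) is shown with the first 9 letters of that element, AAGAAATTC, in capitals at positions -164 to -156.
Il2 promoter: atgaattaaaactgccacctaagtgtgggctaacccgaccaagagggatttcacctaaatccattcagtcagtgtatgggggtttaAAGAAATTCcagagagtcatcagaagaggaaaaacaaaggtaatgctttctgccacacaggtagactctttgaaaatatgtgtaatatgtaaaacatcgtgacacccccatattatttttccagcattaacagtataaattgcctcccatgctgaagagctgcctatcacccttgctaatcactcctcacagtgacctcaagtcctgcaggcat
On either strand these letters occur in a window of 2 of the 12 genes of the IL-2 list with one, and of 121 of all 27025 genes with one (0.448%). A match is a description of the letters and not of binding.

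In the list of the IL-2 system Il2 and Pim2 fell. Of 14 members measured (Il2, its receptor chains, Jak1, Jak3, the STAT5 genes and readouts of STAT5 signalling), 5 rose, 2 fell and 7 did not pass the test in rescue against wild-type cells, with a median of 0.14, where 17.4% of all genes were higher and 17.7% lower. In CD28ko-labelled against wild-type cells 3 rose and 8 fell, with a median of -0.30. Il2ra, the high-affinity receptor chain, had 878, 920.1 and 941 CPM in rescue, 537, 557, 552 and 537 CPM in CD28ko-labelled and 651, 634, 655 and 624 CPM in wild-type libraries. All rescue libraries lay above all others (0.51 ± 0.10 over wild-type, adjusted p = 0.0002). Socs3, a feedback inhibitor of cytokine signalling, rose by 0.60 and Stat5b by 0.27, while Pim2, a survival kinase induced by cytokines, fell by 0.32.

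Cish, Socs1 and Socs2, feedback inhibitors that STAT5 induces, did not pass the test against wild-type. Cish had 147 ± 26.9 CPM in rescue, 71 ± 5.71 CPM in CD28ko-labelled and 135 ± 13.3 CPM in wild-type cells. The log2 fold change over wild-type was 0.12 for Cish (95% interval -0.22 to 0.45), 0.02 for Socs1 (-0.34 to 0.38) and 0.05 for Socs2 (-0.37 to 0.47). The differences from CD28ko-labelled cells were 1.05, 1.22 and 1.09, with adjusted p of 1.7e-05, 6.1e-06 and 0.00024. IL-2 was added to all cultures, so these readouts are of added and secreted cytokine together.

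Of 20 cytokines and chemokines measured, 3 rose in rescue against wild-type cells (15%, beside 17.4% of all genes). Another 6 fell (30%, beside 17.7%), and the median of the list was -0.67. In CD28ko-labelled against wild-type cells 3 were higher and 13 lower (median -1.53). In rescue against CD28ko-labelled cells 11 were higher (55%, beside 9.52% of all genes) and none lower (median 1.06). Besides Il3, those that fell in rescue against wild-type cells were Tnf, Lif, Ccl3, Ccl4 and Tnfsf11, the ligand RANKL. Lif had 39, 51.5 and 49.9 CPM in rescue, 8.58, 11.3, 9.60 and 9.51 CPM in CD28ko-labelled and 62.3, 83.6, 85.5 and 72.1 CPM in wild-type libraries, so rescue cells were in between and apart from both (-0.70 ± 0.16 over wild-type, 2.26 ± 0.16 over CD28ko-labelled cells). Tnf, the inflammatory cytokine, had 32.6 ± 3.52, 18.1 ± 0.937 and 51.8 ± 7.33 CPM in rescue, CD28ko-labelled and wild-type cells, and the chemokine Ccl4 had 74.4 ± 13.4, 25.8 ± 3.26 and 135 ± 18.6 CPM. The call of Ccl4 was lost without rescue replicate 1 (adjusted p of 0.086), and that of Ccl3 without rescue replicate 1, wild-type replicate 2 or 3, and in DESeq2. Tnfsf11 stayed near CD28ko-labelled cells, at 62.8 ± 10.8 CPM in rescue, 51.5 ± 4.89 CPM in CD28ko-labelled and 149.8 ± 15.8 CPM in wild-type cells.

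The cytokines that rose over wild-type were Ltb, Xcl1 and Csf1. Ltb, lymphotoxin beta, had 149, 147 and 147 CPM in rescue, 148, 141, 132 and 167 CPM in CD28ko-labelled and 53, 49.1, 57.2 and 65.8 CPM in wild-type libraries. Xcl1, a chemokine for cross-presenting dendritic cells, had 95.9 ± 10.1, 64.6 ± 3.70 and 38.6 ± 4.23 CPM in the same order of groups, and was called against both. Csf1, a macrophage growth factor, had 4.30, 10.2 and 5.66 CPM in rescue against 2.18, 1.66, 2.57 and 1.24 CPM in wild-type libraries (1.81 ± 0.29, adjusted p = 8e-06), the largest increase of the list.

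Costimulatory and inhibitory receptors moved in both directions. In the CD28 family and inhibitory receptors 3 of 14 rose (21.4%) and 5 fell (35.7%). Among TNF receptors and their ligands 7 of 14 rose (50%) and 3 fell (21.4%). Of all genes 17.4% were higher and 17.7% lower. Tnfrsf4 (OX40), a costimulator that activated T cells gain, had 168, 152 and 143 CPM in rescue, 177, 192, 166 and 179.6 CPM in CD28ko-labelled and 390.3, 417, 411 and 429.6 CPM in wild-type libraries (-1.42 ± 0.13, adjusted p = 4.9e-10). Cd200, an inhibitory ligand, had 226, 217 and 256 CPM in rescue, 213, 231, 222 and 236 CPM in CD28ko-labelled and 541, 524, 537 and 556 CPM in wild-type libraries (-1.21 ± 0.10, adjusted p = 2.6e-11). Cd40lg, the ligand through which T cells license B cells and dendritic cells, fell by 0.96. For these 3 genes rescue cells were not called against CD28ko-labelled cells, with differences of -0.21 ± 0.13, 0.05 ± 0.10 and -0.09 ± 0.12.

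Ctla4 and Btla, both inhibitory receptors, also fell, by 0.92 and 0.75. Btla lay below CD28ko-labelled cells too, with 298, 253 and 275 CPM in rescue, 373, 326, 347 and 364 CPM in CD28ko-labelled and 459.9, 448, 454 and 488 CPM in wild-type libraries. Cd160, an inhibitory receptor of effector cells, rose to 31.5 ± 7.21 CPM in rescue cells, against 8.68 ± 1.22 CPM in wild-type cells, and the coinhibitor Pdcd1 (PD-1) rose to 206 ± 6.06 CPM against 143 ± 11.9 CPM. Tnfsf10 (TRAIL), Cd27, Fas and Tnfrsf9 (4-1BB) rose by 1.28, 0.91, 0.87 and 0.72, and the CD28ko-labelled values over wild-type were 0.87, 1.10, 0.75 and 0.80.

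**Figure D3:**
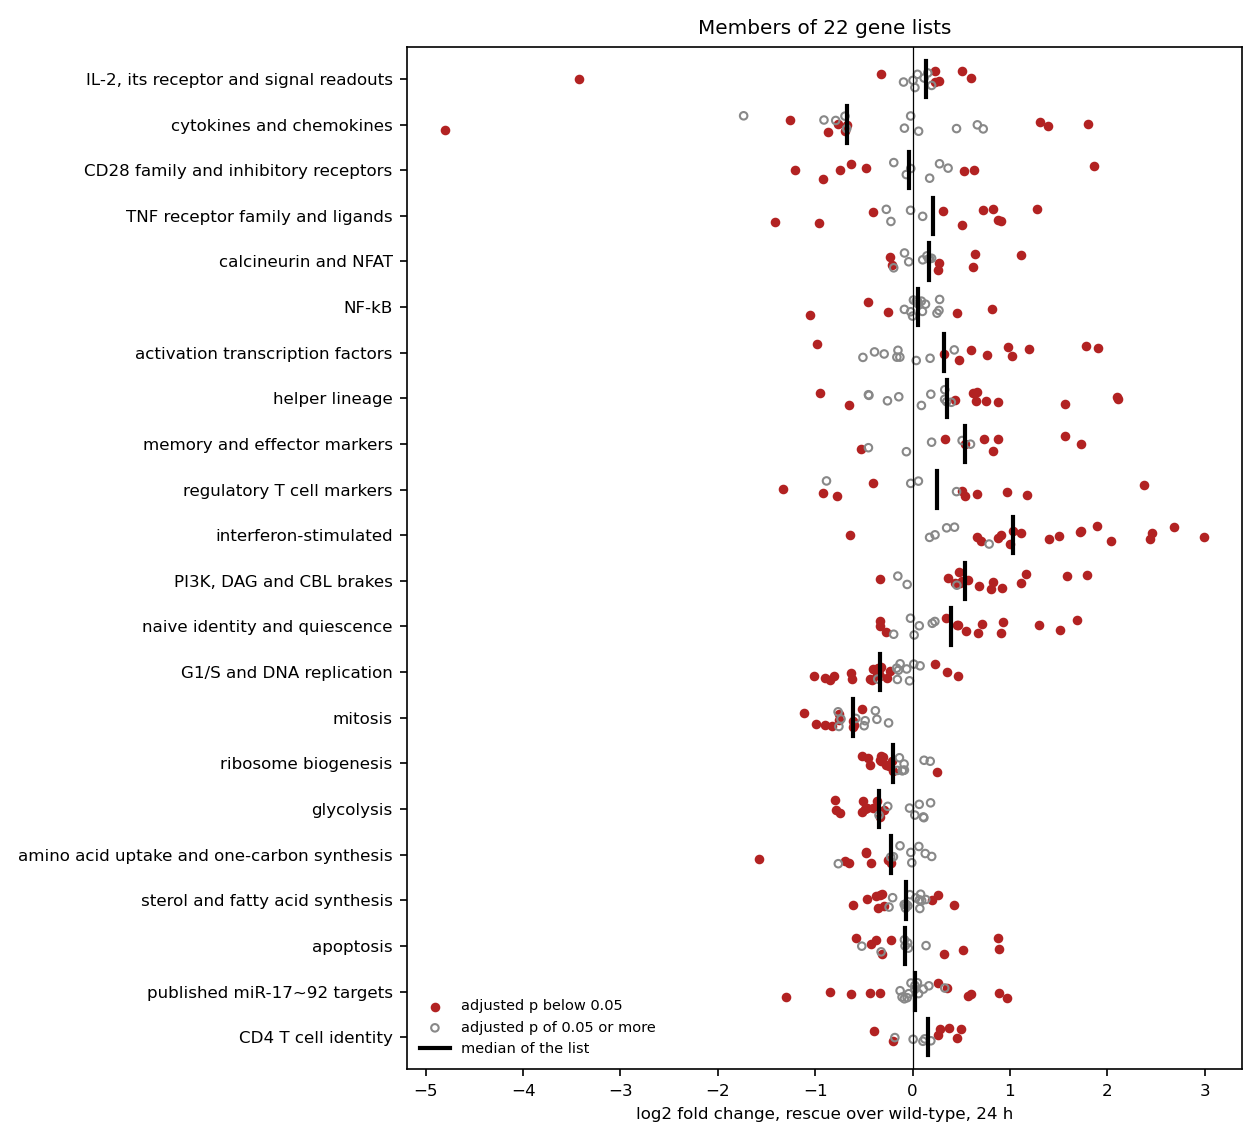
Log2 fold change of rescue over wild-type cells at 24 h for each measured member of 22 gene lists (points; filled where the adjusted p was below 0.05), with the list's median as a bar. The interferon-stimulated list has its median at 1.04 and the mitosis list at -0.61.

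Many genes of growth and division were below wild-type. Of 28 genes of G1/S and DNA replication 3 rose (10.7%) and 16 fell (57.1%), with a median of -0.33. Of 19 mitotic genes none rose and 10 fell (52.6%), with a median of -0.61. Of all genes 17.4% were higher and 17.7% lower. Rrm2, the ribonucleotide reductase subunit that limits deoxynucleotide supply, had 188, 248 and 245 CPM in rescue, 147, 127, 128 and 124 CPM in CD28ko-labelled and 484, 495, 460.0 and 392 CPM in wild-type libraries (-1.01 ± 0.25, adjusted p = 0.0018). E2f1, a transcription factor of S phase entry, fell to 62.1 ± 2.41 CPM in rescue cells, against 96 ± 7.80 CPM in wild-type cells, and Ccnd3 (cyclin D3) fell by 0.43. Ccne2 (cyclin E2) had 30.7 ± 5.71, 16.9 ± 2.40 and 55.2 ± 5.60 CPM in rescue, CD28ko-labelled and wild-type cells. The members that rose were Ccnd2, Cdk6 and Mcm2, which act in G1 or in origin licensing.

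Among mitotic genes, Plk1, a mitotic kinase, had 14.6, 22 and 19.2 CPM in rescue, 12.6, 11.3, 10.9 and 12 CPM in CD28ko-labelled and 41.2, 47.5, 36.3 and 23 CPM in wild-type libraries (-0.99 ± 0.25, adjusted p = 0.0018). The highest rescue library lay just below the lowest wild-type one, which was the male replicate 4. Ube2c, which works with the anaphase-promoting complex, fell by 1.12 and the kinase Aurka by 0.75. In rescue against CD28ko-labelled cells 11 mitotic genes rose (57.9%) and none fell (median 0.81). Of the G1/S genes 9 rose (32.1%) and none fell (median 0.23). Of all genes 9.52% were higher and 8.86% lower in this comparison. The median difference from wild-type within single rescue libraries lay between -0.86 and -0.33 for the mitotic list.

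Of 19 genes of glycolysis 11 fell and none rose (median -0.34). Ldha, which makes lactate from pyruvate, had 1568, 1639 and 1736 CPM in rescue, 1342, 1492, 1430.3 and 1633 CPM in CD28ko-labelled and 2893, 2944, 2837 and 2788 CPM in wild-type libraries (-0.80 ± 0.10, adjusted p = 7.2e-08). Rescue libraries lay well below wild-type and their difference from CD28ko-labelled cells was 0.16 ± 0.10 (adjusted p = 0.27). Eno1 and Tpi1 fell by 0.79 and 0.74, and Hk2, the inducible hexokinase, fell to 131 ± 8.21 CPM in rescue cells, against 187 ± 5.59 CPM in wild-type cells, with 77.8 ± 4.58 CPM in CD28ko-labelled cells. In the whole list 2 members rose in rescue against CD28ko-labelled cells and 17 were not called.

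Of 17 genes of amino acid uptake and one-carbon synthesis none rose and 8 fell (median -0.22). Mthfd2, a mitochondrial folate enzyme, had 151, 176 and 181 CPM in rescue, 109.9, 121, 113 and 113 CPM in CD28ko-labelled and 285, 282, 272 and 257 CPM in wild-type libraries, apart from both (-0.69 ± 0.07 over wild-type and 0.57 ± 0.07 over CD28ko-labelled cells). The serine synthesis enzymes Phgdh and Psat1 fell by 0.48 and 0.47. Of 20 ribosome biogenesis genes 1 rose and 11 fell by small amounts (median -0.20), led by Nop16, which fell by 0.52. Of 24 sterol and fatty acid genes 3 rose (12.5%) and 7 fell (29.2%), with a median of -0.07. The sterol genes Insig1 and Idi1 fell by 0.61 and 0.47. The fatty acid synthase Fasn rose to 854 ± 23.7 CPM in rescue cells, above both CD28ko-labelled (652 ± 48 CPM) and wild-type cells (638 ± 64.8 CPM).

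Most brakes on antigen receptor signalling were above wild-type. Of 18 genes that restrain PI3K, diacylglycerol or receptor signalling, 14 rose and 1 fell (median 0.54). The CD28ko-labelled cells had the same counts against wild-type, 14 and 1, with a median of 0.63. Rasa1, a GTPase activator that turns Ras off, had 173, 177 and 151 CPM in rescue, 183, 122, 178 and 152 CPM in CD28ko-labelled and 49.2, 57.8, 55.1 and 61.1 CPM in wild-type libraries (1.58 ± 0.13, adjusted p = 1.2e-11). Pik3ip1, an inhibitor of PI3K, had 16.2, 10.0 and 11.9 CPM in rescue, 24.8, 21.5, 19.4 and 25.7 CPM in CD28ko-labelled and 4.27, 2.95, 3.28 and 4.29 CPM in wild-type libraries. Its rescue libraries lay between the other groups without overlap (1.79 ± 0.16 over wild-type, adjusted p = 8e-11, and -0.85 ± 0.14 over CD28ko-labelled cells, adjusted p = 2.5e-05).

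Dgka, the kinase that consumes diacylglycerol and is known from anergic T cells, had 409.9 ± 66.3, 628 ± 18.6 and 217 ± 17.3 CPM in rescue, CD28ko-labelled and wild-type cells. Sesn3, an inhibitor of mTORC1, rose by 0.82.

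Of 20 genes of the naive and quiescent state 11 rose and 3 fell (median 0.40), beside 16 and 1 for CD28ko-labelled over the same wild-type cells (median 0.69). Il7r, the receptor of the survival cytokine IL-7, had 24.9, 16.6 and 24.5 CPM in rescue, 46.5, 28.9, 29.9 and 53.4 CPM in CD28ko-labelled and 7.39, 7.79, 8.19 and 7.33 CPM in wild-type libraries (1.52 ± 0.20, adjusted p = 5e-07). S1pr1, which lets T cells leave lymph nodes, had 16.3 ± 4.62, 40.8 ± 9.74 and 5.05 ± 1.37 CPM in rescue, CD28ko-labelled and wild-type cells, and its regulator Klf2 had 17.4 ± 4.88, 38 ± 7.07 and 7.06 ± 1.81 CPM. Against CD28ko-labelled cells 14 of the 20 fell and none rose (median -0.47). Lef1, a transcription factor of naive T cells, was lower in rescue cells than in both other groups, with 163, 127 and 141 CPM in rescue, 190.0, 205, 203 and 205 CPM in CD28ko-labelled and 184, 171, 177 and 190.1 CPM in wild-type libraries.

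Several activation-induced transcription factors were above wild-type, with 9 of 19 higher and 1 lower (median 0.33). In CD28ko-labelled against wild-type cells 9 were higher and 5 lower (median 0.36), and in rescue against CD28ko-labelled cells 4 were higher and 3 lower. Myb rose to 108 ± 23.8 CPM in rescue cells, against 28.7 ± 2.26 CPM in wild-type cells, and Nr4a1, an orphan receptor that reports antigen receptor signals, rose to 299 ± 34.8 CPM against 176 ± 12.8 CPM. Batf, an AP-1 factor of effector cells, was the member that fell, with 25.7, 31.8 and 29.3 CPM in rescue, 25.7, 25.9, 25.4 and 30.5 CPM in CD28ko-labelled and 65.1, 56.7, 59.8 and 46.1 CPM in wild-type libraries. Among 15 genes of calcineurin and NFAT 5 rose (33.3%) and 2 fell (13.3%), including Nfatc1 at 0.62 and the calcineurin subunit Ppp3cc at 1.11. In CD28ko-labelled against wild-type cells 8 of this list were higher and none lower, and in rescue against CD28ko-labelled cells none were higher and 2 lower. Of 18 NF-kB genes 2 rose (11.1%) and 3 fell (16.7%), neither share above the 17.4% higher and 17.7% lower of all genes. Malt1 rose by 0.82. Nfkbid, which codes for a nuclear IkB protein, fell to 67, 61.1 and 68.1 CPM in rescue libraries. These were near 68.5, 63.7, 69.6 and 70.3 CPM in CD28ko-labelled and below 125, 142, 134 and 143 CPM in wild-type libraries.

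Several genes of the Th1 program lay near wild-type in rescue cells. Tbx21, the T-bet gene that directs Th1 differentiation, had 50.2, 98.9 and 107 CPM in rescue, 6.82, 8.67, 9.20 and 5.13 CPM in CD28ko-labelled and 109, 143, 114 and 101 CPM in wild-type libraries. Rescue replicate 1 lay at about the middle of the scale and the other 2 near wild-type. The log2 fold change over wild-type was -0.45 ± 0.24 (95% interval -0.93 to 0.03, adjusted p = 0.14), and over CD28ko-labelled cells 3.52 ± 0.26 (adjusted p = 1e-11). Ifng, the Th1 cytokine, had 6.29, 15.5 and 12.6 CPM in rescue, 1.59, 1.81, 1.61 and 2.04 CPM in CD28ko-labelled and 8.90, 20.9, 10.6 and 8.02 CPM in wild-type libraries. Its 95% interval over wild-type, -0.84 to 0.67, is wide, so differences in either direction within that range are compatible with these counts.

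Il12rb2, the IL-12 receptor chain of Th1 cells, and Irf8, an interferon regulatory factor, also lay near wild-type. Irf8 had 311, 477 and 458 CPM in rescue, 91, 91.5, 96.2 and 86.7 CPM in CD28ko-labelled and 344, 499, 405 and 371 CPM in wild-type libraries, with overlap of rescue and wild-type (0.04, 95% interval -0.39 to 0.47). Il12rb2 had 25.1 ± 7.44, 2.62 ± 0.542 and 20.0 ± 5.86 CPM in rescue, CD28ko-labelled and wild-type cells (0.33, 95% interval -0.09 to 0.75). Both were called against CD28ko-labelled cells, with differences of 2.19 ± 0.22 and 3.26 ± 0.23.

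**Figure D4:**
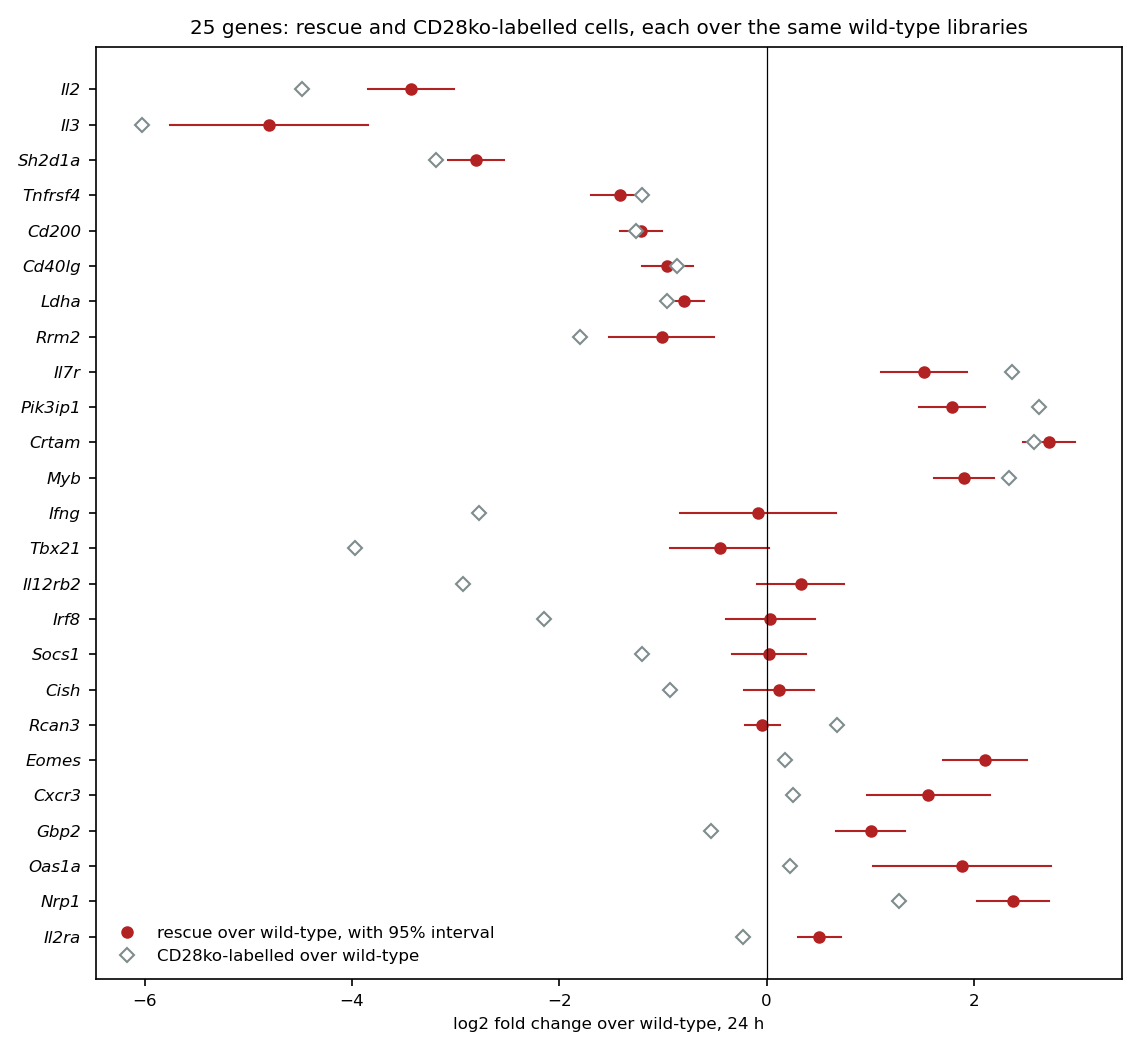
Log2 fold change over the same 4 wild-type libraries at 24 h for 25 genes, for rescue cells (red points with the 95% interval) and CD28ko-labelled cells (open diamonds). Il2, Sh2d1a and Tnfrsf4 were low in both, Ifng, Irf8 and Rcan3 had rescue intervals that include 0, and Eomes, Cxcr3 and Gbp2 were above wild-type in rescue cells.

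Other Th1 and effector genes were above wild-type. In the helper lineage list 9 of 21 rose and 2 fell (median 0.35). Eomes, a T-box factor of cytotoxic and memory cells (chromosome 9:118478186-118486132), had 30.3, 40.4 and 30.2 CPM in rescue, 9.12, 9.10, 9.80 and 7.32 CPM in CD28ko-labelled and 8.81, 9.79, 5.07 and 7.50 CPM in wild-type libraries. Every rescue library was above every other library (2.11 ± 0.20 over wild-type, adjusted p = 4.8e-10), while CD28ko-labelled cells differed from wild-type by 0.18 ± 0.19 (adjusted p = 0.46). Cxcr3, a chemokine receptor of Th1 cells, had 5.10, 8.13 and 6.07 CPM in rescue, 2.43, 3.02, 2.77 and 2.15 CPM in CD28ko-labelled and 2.09, 2.72, 2.14 and 1.72 CPM in wild-type libraries (1.56 ± 0.29, adjusted p = 7.9e-05). Il4ra, the IL-4 receptor chain, rose to 294 ± 34.3 CPM in rescue cells, against 205 ± 20.1 CPM in CD28ko-labelled and 191 ± 11.3 CPM in wild-type cells.

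Maf, a factor of T follicular and regulatory programs, was high in both CD28-/- genotypes, at 4.64 ± 0.807 CPM in rescue, 6.85 ± 1.56 CPM in CD28ko-labelled and 1.08 ± 0.0706 CPM in wild-type cells. Of 13 memory and effector markers 7 rose and 1 fell (median 0.53), and their summed level was 661 to 832 CPM in rescue, 444 to 463 CPM in CD28ko-labelled and 691 to 795 CPM in wild-type libraries. Ahnak rose by 1.73, and Itgb1, the integrin beta 1 chain, was the member that fell, by 0.53.

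Genes that interferons induce were above wild-type, with the highest median of the 22 lists plotted. Of 23 members, 17 rose, 1 fell and 5 did not pass (median 1.04). In CD28ko-labelled against wild-type cells 8 rose and 4 fell (median 0.22), and in rescue against CD28ko-labelled cells 11 rose and none fell (median 0.87). Gbp2, a GTPase of cell-autonomous defence that interferon gamma induces, had 1046, 1481 and 1462 CPM in rescue, 420.2, 512, 498 and 399 CPM in CD28ko-labelled and 649, 827, 570.3 and 603 CPM in wild-type libraries. The rescue libraries lay above all others (1.01 over wild-type).

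Many of the list's members were scarce at 24 h. Irf7, a regulator of type I interferon, had 6.98, 5.98 and 5.45 CPM in rescue, 4.56, 4.40, 3.41 and 3.89 CPM in CD28ko-labelled and 1.02, 1.17, 0.858 and 1.44 CPM in wild-type libraries. Mx1, Oas1a and Rtp4, antiviral or interferon-induced genes, had 2.99 ± 0.188, 1.17 ± 0.196 and 2.43 ± 0.0669 CPM in rescue cells, against 0.721 ± 0.210, 0.309 ± 0.109 and 0.371 ± 0.238 CPM in wild-type cells. The sensor gene Ddx58 (RIG-I) rose by 1.51 and Zbp1, a nucleic acid sensor, by 1.04. Bst2 (tetherin) was the member that fell, with 43.8, 57.9 and 54.7 CPM in rescue, 29.4, 33.7, 30.8 and 40.0 CPM in CD28ko-labelled and 78.2, 79.3, 78.9 and 87.9 CPM in wild-type libraries.

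The excess was present before culture, with 15 of the 23 higher and none lower in naive rescue against naive wild-type cells, where 26.1% of all genes were called (12.5% higher). Oas1a averaged 26.6 ± 9.03 CPM in naive rescue against 10.0 ± 0.283 CPM in naive wild-type cells. Wild-type replicate 4, the male library, had the highest wild-type level of Irf7, Ifit3 and Rtp4, and without it the median of the list was 1.19. Transcription factors that interferons activate are known to bind the interferon-stimulated response element, here searched as the letters GAAANNGAA on either strand. The promoters of Ifit3 (chr19:34583279-34583578, plus strand) and Oas1a (chr5:120907476-120907775, minus strand) from RefSeq (GRCm38.p6) are shown as examples, with matches in capitals (the stretch in Oas1a holds 2 that overlap).
Ifit3 promoter: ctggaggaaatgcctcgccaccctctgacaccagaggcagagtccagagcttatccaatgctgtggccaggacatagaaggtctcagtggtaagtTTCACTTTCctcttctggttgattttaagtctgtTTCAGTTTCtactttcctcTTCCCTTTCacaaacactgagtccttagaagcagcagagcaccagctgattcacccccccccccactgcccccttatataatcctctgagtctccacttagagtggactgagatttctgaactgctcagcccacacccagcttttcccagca
Oas1a promoter: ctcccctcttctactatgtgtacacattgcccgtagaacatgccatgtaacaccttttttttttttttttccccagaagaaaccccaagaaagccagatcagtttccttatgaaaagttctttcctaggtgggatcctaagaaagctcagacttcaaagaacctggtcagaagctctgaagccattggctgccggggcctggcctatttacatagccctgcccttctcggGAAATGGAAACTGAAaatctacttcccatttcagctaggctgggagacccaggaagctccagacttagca
Of the list's 17 genes with a promoter in the table, 13 hold such a match (76.5%), against 9.76% of all 27025 genes with a promoter there.

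Markers of regulatory T cells split. Foxp3, their defining factor, had 5.28, 2.54 and 3.40 CPM in rescue, 7.20, 6.60, 5.46 and 4.60 CPM in CD28ko-labelled and 8.23, 9.68, 9.44 and 10.3 CPM in wild-type libraries (-1.33 ± 0.22, adjusted p = 1.5e-05), and Ikzf2 (Helios) fell by 0.78. Rescue cells were below CD28ko-labelled cells in Foxp3 as well (-0.67 ± 0.22, adjusted p = 0.033). Of the 14 markers 6 rose and 4 fell, and those that rose were Nrp1, Capg, Ikzf4, Il2ra, Gpr83 and Izumo1r. Some of these, such as Il2ra, are also expressed by activated conventional T cells. Which cells expressed them here was not tested. The summed level of the list was 1585 to 1616 CPM in rescue and 1199 to 1255 CPM in wild-type libraries, with Il2ra as its most abundant member. Foxp3 was already lower in the naive state, at 5.65 ± 0.352 CPM in rescue against 21.7 ± 1.63 CPM in wild-type cells.

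Published targets of miR-17~92 were called in both directions. Of 24 measured, 6 rose (25%), 5 fell (20.8%) and 13 did not pass in rescue against wild-type cells (median 0.02), shares near the 17.4% higher and 17.7% lower of all genes. Against CD28ko-labelled cells 5 rose (20.8%) and 7 fell (29.2%), with a median of -0.02, where 9.52% of all genes were higher and 8.86% lower. In naive rescue against naive wild-type cells none rose and 8 fell (median -0.18), where 13.6% of all genes were lower. All 24 had a 3′ untranslated region to search and 23 held a 7-base match to at least 1 seed of the cluster. Matches in 4 of the targets are shown with 12 bases before and 4 after, from GENCODE transcripts of the mouse genome (M21), with the bases that pair with the seed in capitals.
Rcan3, miR-17 family: gtattctcaatgGCACTTTaagt
Tgfbr2, miR-17 family: ccaataacgtttGCACTTTatta
Bcl2l11, miR-92 family: gccactgtacctGTGCAATactg
Cd69, miR-17 family: agcctcatcaacGCACTTTattt

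These 4 behaved differently. Rcan3, an inhibitor of calcineurin, had 42.1, 34.6 and 33.7 CPM in rescue, 61.5, 62, 62.3 and 57.4 CPM in CD28ko-labelled and 39.2, 35.2, 36.3 and 40.6 CPM in wild-type libraries, so rescue libraries overlapped the wild-type ones (-0.04, 95% interval -0.21 to 0.13) and lay below CD28ko-labelled cells (-0.72 ± 0.08, adjusted p = 8.8e-08). Tgfbr2, a TGF-beta receptor, was in between, at 73.8, 65.2 and 68.4 CPM in rescue, 103, 101, 95.1 and 105 CPM in CD28ko-labelled and 50.5, 52.8, 54.8 and 58.5 CPM in wild-type libraries. Bcl2l11 (BIM), which starts mitochondrial cell death, was above wild-type (0.89 ± 0.10, adjusted p = 2.7e-08) and below CD28ko-labelled cells (-0.44 ± 0.10, adjusted p = 0.0026). Cd69, an early activation marker, fell to 166, 152 and 155 CPM in rescue libraries, against 198, 181, 179.8 and 189.5 CPM in CD28ko-labelled and 258, 268, 267 and 343 CPM in wild-type libraries.

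Cdkn1a (p21), a cell cycle inhibitor and published target, fell by 1.30, while Ikzf4 rose by 0.97. Among 16 apoptosis genes 4 rose (25%) and 5 fell (31.25%), beside 17.4% and 17.7% of all genes. The survival gene Bcl2l1 had 199 ± 18.6, 128 ± 8.72 and 298 ± 24.9 CPM in rescue, CD28ko-labelled and wild-type cells, and Bcl2 had 93.9 ± 3.01, 114 ± 5.12 and 65.5 ± 4.19 CPM. Over all 12666 genes with a searched 3′ untranslated region, the median log2 fold change of rescue over wild-type cells was -0.01 for the 1794 with a miR-17 family match, 0.03 for the 1164 with a miR-18, 0.00 for the 1618 with a miR-19 and 0.02 for the 933 with a miR-92 match, against -0.05 for the 8513 with none. Genes without a match have shorter untranslated regions (median 783 bases, against 2232 for genes with any), so the classes differ in more than the match. In naive rescue against naive wild-type cells the medians were -0.09, -0.04, -0.05 and -0.09 in the same order of families, against 0.02 without a match. In rescue against CD28ko-labelled cells at 24 h they were -0.030, 0.003, -0.013 and -0.032, against 0.026 without a match. There 12.3% of genes with any match were lower and 8.79% higher, against 7.59% and 10.6% of genes without one. In CD28ko-labelled against wild-type cells the medians were 0.016, 0.022, 0.013 and 0.044, against -0.064 without a match.

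The difference between rescue and wild-type cells changed with stimulation for 4326 genes, or 31.7%. Of these 2205 changed upward (16.2% of all genes) and 2121 downward (15.5%). Genes of RNA stress and dissociation moved with this comparison: in naive rescue against naive wild-type cells 8 of 12 were lower and none higher (median -0.74), and 5 had a positive interaction. In the naive comparison 13.6% of all genes were lower and 12.5% higher. Their summed level was 5580, 5231 and 6074 CPM in naive rescue libraries, against 7188, 6436, 7223 and 15547 CPM in naive wild-type libraries, with replicate 4, the male library, far above the rest. Without that library 4 of the 12 were lower and 4 had a positive interaction, and the difference changed for 4344 genes. The 8 genes with the smallest p of the interaction kept their calls without it. Sh2d1a changed with the smallest p. It averaged 40.0 ± 6.94 CPM in naive rescue against 36.5 ± 3.10 CPM in naive wild-type cells, and 9.19 ± 1.61 CPM in rescue against 64.3 ± 6.27 CPM in wild-type cells at 24 h, an interaction of -2.94 ± 0.17 (adjusted p = 3.7e-14). In naive cells its difference was 0.13 ± 0.12 (adjusted p = 0.44), and at 24 h the rescue mean was 14.3% of the wild-type mean. Crtam took the opposite course, with 16.7 ± 1.65 CPM in naive rescue against 10.5 ± 1.60 CPM in naive wild-type cells and an interaction of 2.06 ± 0.18.

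Adgre5 (CD97), Il18r1, an IL-18 receptor chain, Pou6f1, Dgka and Pecam1 (CD31) crossed over. Each was lower in naive rescue than in naive wild-type cells and higher at 24 h. Il18r1 averaged 29.3 ± 1.29 CPM in naive rescue against 58.1 ± 6.89 CPM in naive wild-type cells, and 2.85 ± 0.00542 CPM in rescue against 0.736 ± 0.143 CPM in wild-type cells at 24 h. Dgka averaged 1260.4 CPM in naive rescue against 1758 CPM in naive wild-type cells. Calcoco1 differed little in naive cells (0.27, adjusted p = 0.078) and by 2.41 at 24 h. In the list of brakes, none of 18 members was higher in naive rescue than in naive wild-type cells and 1, Dgka, was lower (2 lower without naive wild-type replicate 4), while 14 had a positive interaction. Of all genes 12.5% were higher and 13.6% lower in the naive comparison, and 16.2% had a positive interaction.

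**Figure D5:**
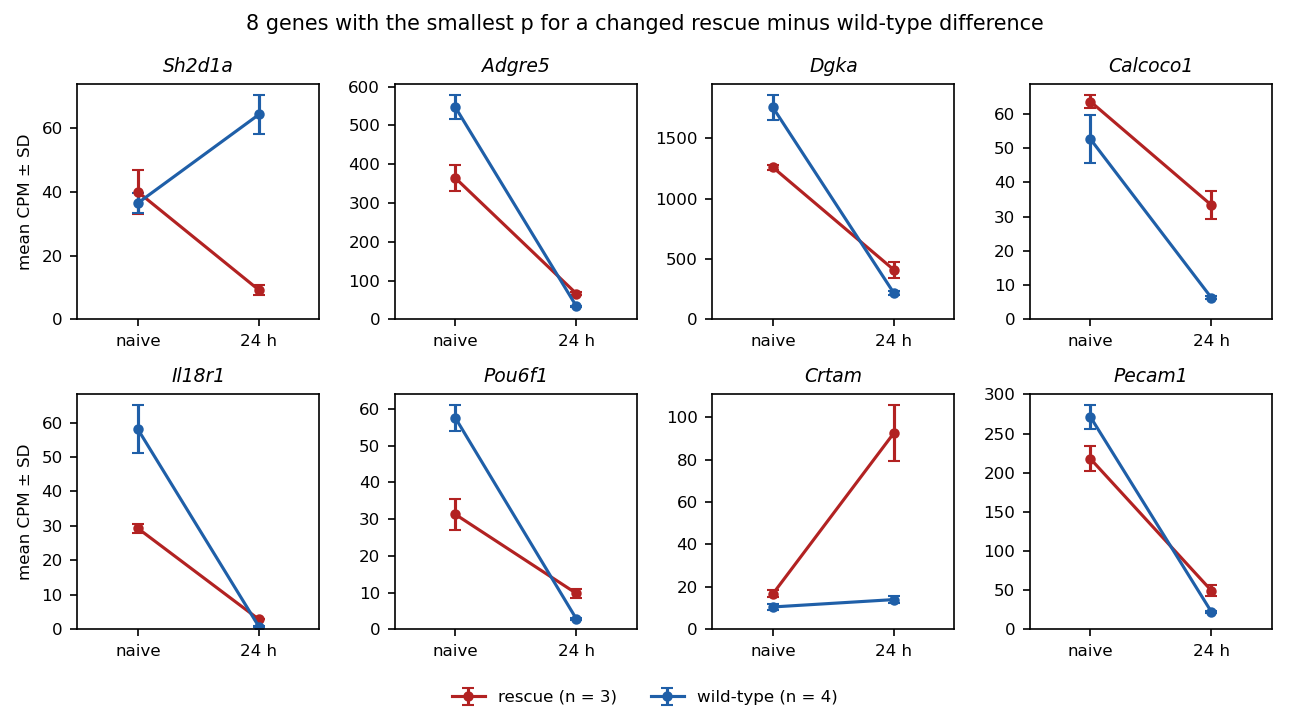
Mean level in CPM with SD, naive and at 24 h, of the 8 genes with the smallest p for a change of the rescue minus wild-type difference, in rescue (red, 3 libraries per time) and wild-type cells (blue, 4 libraries per time). Lines cross for Sh2d1a, Adgre5, Dgka, Il18r1, Pou6f1 and Pecam1.

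Markers of B cells and of myeloid cells were called less often than the 35.1% of all genes, unlike markers of NK and CD8 T cells. Of 14 B cell markers none was called, but all had log2 fold changes above 0 (0.19 to 0.84, median 0.73). Their summed level was 246 to 362 CPM in rescue, 249 to 385 CPM in CD28ko-labelled and 114 to 278 CPM in wild-type libraries. Ms4a1 (CD20) had 10.0, 11.1 and 15.1 CPM in rescue and 4.63, 10.9, 7.49 and 3.81 CPM in wild-type libraries, with overlap (0.84 ± 0.38, adjusted p = 0.087; 0.028 without wild-type replicate 2). Myeloid markers summed to 7.70 to 13.8 CPM in rescue and 7.41 to 14.4 CPM in wild-type libraries, with Cybb higher and Lyz2 and Cd14 lower of 14. Cd14 and Clec9a had no count in any rescue library, where 3 counts over the group stand for 0.0364 CPM.

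Markers of NK and CD8 T cells summed to 35.2 to 45.7 CPM in rescue and 30.7 to 43.8 CPM in wild-type libraries. Of 10, Klrd1 and Prf1 rose (20%) and Gzma and Ncr1 fell (20%), beside 17.4% and 17.7% of all genes. Gzma and Ncr1 had levels below 1 CPM and calls that were lost when single libraries were left out. Gzmk had no count in rescue libraries. Prf1 (perforin), a cytotoxic effector gene, had 4.23, 5.05 and 5.10 CPM in rescue, 2.85, 3.15, 2.81 and 3.02 CPM in CD28ko-labelled and 1.29, 2.53, 1.83 and 1.20 CPM in wild-type libraries. Of the 12 genes of RNA stress and dissociation 2 rose and 1 fell at 24 h (median -0.12), and 3 red cell markers were not called. The part of any of these cells or of sex in the results above was not tested.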

How the data were processed

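PolyA RNA of mouse CD4 T cells was sequenced as single-end 76-base stranded libraries, per the labels' protocols. The build was mm10, and STAR 2.5.2a, FastQC 0.11.5, edgeR 3.24.3 and R 3.5 are named, per the submitters' processing notes. The authors deposited raw counts per gene for 38 libraries; how reads were counted, and on which annotation, is not given in the sources used here. Of 24028 rows, 23968 matched a RefSeq symbol, and the rest held 0.0749% of counts. Each library came from 1 mouse, so p-values measure the spread between mice; whether a naive and a 24 h library share a mouse is not stated, and the interaction treats them as separate.

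The 13650 genes that passed edgeR's expression filter were fitted in 1 model of all 38 libraries with a coefficient per group (edgeR 4.0.16, R 4.3.3, TMM scaling, quasi-likelihood test, Benjamini-Hochberg adjustment, threshold 0.05), and CPM use TMM-scaled library sizes. In simulated counts with the same 3 and 4 libraries, changes of 1 log2 unit were called in 82% (up) and 74% (down) of cases, and 0.0674% of 13344 unchanged genes were called. The simulation held 50 genes for each size and direction of change, a far smaller share than the 35.1% of genes called in the data. Both rates depend on how many genes change, so they do not carry over to the real comparison. Alternatives were DESeq2 1.42.0, another scaling, other filters, other sets of libraries in the fit, the replicate number as a block, and leaving out each library.

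The members and gene lists were chosen with earlier results of these data known. Genes were named by rule as the engineered loci, the 12 largest called increases and decreases whose groups did not overlap and whose higher group averaged 5 CPM or more (unnamed gene models, antigen receptor segments and sex-linked genes left out), up to 4 members per list and the 8 smallest interaction p-values. Most cytokines and cytokine-signalling readouts named, Tbx21, Ifng, Irf8, Il12rb2, Gbp2, Mx1, Ifit3, Oas1a, Bst2, Foxp3, Ikzf2, Rcan3, Tgfbr2, Cdkn1a, Rrm2, Hk2, Fasn, Lef1, Klf2, Pdcd1, Tnfrsf9 and Cd4 were chosen after their values were seen. For seed matches, the longest 3′ untranslated region per gene (30 bases or more) was searched.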

Additional observations from a re-analysis of the deposited data

Results flagged for a closer look

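In 8 of the 156 genes checked, 1 wild-type library lay apart from the other 3 by the gap between neighbouring values, and chance gives such a gap in about 1 in 20 groups. Wild-type replicate 4, the male library, stood apart in E2f1 with 84.3 CPM (the lowest), Bst2 with 87.9 CPM (the highest) and Cd69 with 343 CPM (the highest). Replicate 1 stood apart in Sspo with 1.29 CPM, Fbl with 220.4 CPM and Id2 with 21.8 CPM. Replicate 2 stood apart in Jun with 24.5 CPM, and replicate 3 in the precursor Mir19a, which it alone of the wild-type libraries counted, at 0.0780 CPM.

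The difference between rescue and wild-type cells changed between the naive state and 24 h for 4326 genes by the interaction term. The genes with the smallest p were Sh2d1a with an interaction of -2.94 on the log2 scale, Adgre5 with 1.57, Dgka with 1.40, Calcoco1 with 2.14, Il18r1 with 2.92, Pou6f1 with 2.68, Crtam with 2.06 and Pecam1 with 1.47.

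Outside the compared groups, Gh averaged 3.43 CPM in stimulated T1792tg libraries, against 0.0423 CPM in stimulated wild-type libraries.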

How the results depend on the processing

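The count of 4794 genes between rescue and wild-type cells at 24 h was 4982 in DESeq2, 4774 with DESeq2's scaling in edgeR, 4269 with a mean of at least 5 CPM, 4350 without a filter, 6107 with the compared groups alone, 5750 with the stimulated libraries alone and 3364 to 4379 with a library left out, lowest without rescue replicate 1. Of 175 named genes, 152 kept their direction and side of the threshold in every alternative that gave them a value, and none reversed; a mean of at least 5 CPM gave 158 of them a value, the compared groups alone 170 and the stimulated libraries alone 172. Correlations of same-numbered libraries' deviations were -0.14, 0.18 and -0.16 over 8862 genes between rescue and wild-type cells at 24 h. They give no sign that the numbers pair these genotypes, but so few values cannot exclude it. With the replicate number as a block 4712 genes were called, and Tbx21 then passed (adjusted p = 0.013). The count for naive rescue against naive wild-type cells was 1846 with those groups alone and 2105 to 4066 with a library left out. The count for rescue against CD28ko-labelled cells was 3851 with those groups alone and 1300 to 2561 with a library left out. The interaction count ranged over 3115 to 4784 and the count for CD28ko-labelled against wild-type cells over 6459 to 6699. 

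Between naive and 24 h libraries of the same number the correlations were 0.16, 0.39 and -0.058 in rescue and 0.22, 0.17, 0.22 and 0.44 in wild-type cells, and the sex read from the counts was the same at both times for each number. Naive rescue replicate 3, however, correlated most with stimulated rescue replicate 1 (0.34). All rescue libraries were female, so sex could not tell their numbers apart, and in wild-type cells only replicate 4 differed in sex. These values are a weak hint that numbers may mark the same mouse, which the labels do not state. With the number within genotype as a block across times, chosen after seeing the data, the interaction count was 4158, and the 8 genes named for it and Mir17 remained called. Without naive wild-type replicate 4, also chosen after seeing the data, 2 brakes and 4 RNA stress genes were lower in naive rescue cells.

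Without stimulated wild-type replicate 4, an alternative chosen after seeing the data, no brake was lower (0) and no ribosome biogenesis gene higher (0), 1 amino acid gene was higher, the interferon-stimulated median was 1.19, 1 CD4 identity gene was lower, the myeloid median was -0.71 with 0 higher, and 1 NK or CD8 marker was lower. With 8-base seed matches the medians of rescue over wild-type cells at 24 h were -0.0296 for miR-17, 0.0669 for miR-18, -0.0236 for miR-19 and -0.0121 for any family. Precursors and many interferon-stimulated genes were below a few CPM, where counting error limits precision, and the causes of these differences were not tested.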
